A study of Mus musculus with 6 samples.

Results

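The 10 genes described here encode the enzymes that set the activity of the pyruvate dehydrogenase complex, namely 4 kinases (Pdk1, Pdk2, Pdk3, Pdk4), the phosphatases Pdp1 and Pdp2, the phosphatase regulator Pdpr and 3 subunits of the complex itself (Pdha1, Pdhb, Dlat). They were taken by symbol, 1 row each, from 55487 genes in the files, and all 10 had enough counts to be among the 15727 genes tested. The set was chosen by symbol but with the CPM of ET and CONT libraries and their fold changes already known, so its differences between these groups are a description and no test of the set is made. Left ventricles, the main pumping chamber of the heart, came from wild-type male C57BL/6 mice given as 8 weeks old. ET mice, labelled as alcoholic cardiomyopathy, had 10 days on a 5% ethanol diet, closed by 1 oral gavage of ethanol. For CONT mice the diet was isocaloric and the gavage was of maltose-dextrin. Hearts of both groups were taken 9 h after the gavage and measured by bulk RNA sequencing, with 3 libraries per group. The labels do not say that each library is a separate mouse, so the errors and p-values cover only how these libraries vary, which could be technical in part or whole.

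The pyruvate dehydrogenase complex sits in the mitochondrial matrix and turns pyruvate into acetyl-CoA, which commits carbon from glucose and lactate to oxidation in the tricarboxylic acid cycle. The kinases phosphorylate its alpha subunit and switch the complex off, and the phosphatases remove the phosphate and switch it on. In heart and skeletal muscle this switch is known as a point where the use of glucose gives way to that of fatty acids, and Pdk4 is the kinase best known for induction by fasting and fatty acids.

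The libraries held 28838386 to 37762233 expected counts, the estimated numbers per gene that RSEM gives. Values compared between groups are CPM (counts scaled to a fixed library total, with TMM factors), and values compared between genes are TPM, which are also divided by gene length. ET replicate 1 stood apart in its tissue markers. Its 6 atrial markers summed to 9019 CPM, against 339 and 60.9 CPM in ET replicates 2 and 3 and 122, 76.6 and 1637 CPM in CONT replicates 1 to 3. The 7 fibroblast markers summed to 1936 CPM there, against 566 to 735 CPM in the other 5 libraries, and the 10 cardiomyocyte markers to 34288 CPM, against 54269 to 65021 CPM. No marker of the 12 lists was at 0 in all libraries. ET replicate 3 had the highest sums of hepatocyte (80.6 CPM) and neutrophil (44.5 CPM) markers. In bulk tissue, fewer cells of a type and less RNA per cell cannot be told apart. The effective gene lengths in the files were also used to place the libraries in 2 sets that cross the groups. ET replicate 1 fell with CONT replicates 1 and 2 (set 1), and ET replicates 2 and 3 with CONT replicate 3 (set 2). The cut is the sign of a graded score, the first principal component of these lengths (48.1% of variance). ET replicate 1 (0.200) and CONT replicate 3 (-0.188) lay nearest the cut, and the others ran from 0.503 to -0.586, so the sets need not be separate batches.

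Pdk4 was the gene of this system with the widest difference. It had 289, 1564 and 1520 CPM in ET replicates 1 to 3, against 147, 220 and 271 CPM in CONT replicates 1 to 3. The groups did not overlap, but ET replicate 1 was at only 1.07 times the highest CONT library, while ET replicates 2 and 3 were at 7.35 and 7.14 times the CONT mean. The log2 fold change of ET over CONT was 2.40 ± 0.62 (SE of the edgeR fit, n = 3 per group), rank 64 from the top among the 15727 genes. Within set 1, which holds 1 ET library, the log2 ratio was 0.65, and within set 2, which holds 1 CONT library, it was 2.51. The lower value goes with the library of high atrial and fibroblast markers, and the part of those tissues or of the set in it was not tested.

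No gene passed the test across all genes. The quasi-likelihood test of edgeR with Benjamini-Hochberg adjustment called 0 of 15727 (0%) at an adjusted p under 0.05, and 1360 had an unadjusted p under 0.05. Limma-voom called 0, and DESeq2 called 185 of 15365 (1.20%). Pdk4 had an adjusted p of 0.478 by edgeR and 0.00328 by DESeq2, and was the only one of the 10 genes that DESeq2 called with all 6 libraries. The DESeq2 call was lost without ET replicate 2 (adjusted p 0.0571), CONT replicate 1 (0.121) or CONT replicate 2 (0.0809). Pdk4 was also the only one of the 10 genes with an unadjusted p under 0.05 in edgeR's test (0.00603), beside 4.19% of all genes that were higher in ET and 4.46% that were lower at that threshold. Since the gene was chosen with this contrast known, none of these values supports it further. Over all alternatives the adjusted p of Pdk4 ran from 4.25e-23 by DESeq2 without ET replicate 1, a fit added after seeing the data, to 0.999 by edgeR without CONT replicate 2. The log2 fold change was lowest, at 1.58, in edgeR with a term for the library set (adjusted p 0.431). It was highest, at 3.09, in edgeR without ET replicate 1 and CONT replicate 3.

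Beside Pdk4, Pdk2 is the other abundant kinase, and its level did not separate the groups. Pdp2 is a phosphatase that, like Pdk4, Pdk1 and Pdpr, was highest in ET replicates 2 and 3. The promoters of Pdk4, Pdk2 and Pdp2 are shown here. Each is the 250 bases before the RefSeq start on GRCm38.p6, 5′ to 3′ on the strand of the gene, at chr6:5496279-5496528 (minus strand) for Pdk4, chr11:95041372-95041621 (minus) for Pdk2 and chr8:104591222-104591471 (plus) for Pdp2. The GENCODE start of Pdk4 lies 31 bases further upstream than the RefSeq start. Capitals mark matches on either strand to the motifs searched.
Pdk4: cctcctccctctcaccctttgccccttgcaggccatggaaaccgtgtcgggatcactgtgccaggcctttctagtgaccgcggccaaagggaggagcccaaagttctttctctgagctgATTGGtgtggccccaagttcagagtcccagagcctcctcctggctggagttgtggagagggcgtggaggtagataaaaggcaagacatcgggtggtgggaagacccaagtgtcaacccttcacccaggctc
Pdk2: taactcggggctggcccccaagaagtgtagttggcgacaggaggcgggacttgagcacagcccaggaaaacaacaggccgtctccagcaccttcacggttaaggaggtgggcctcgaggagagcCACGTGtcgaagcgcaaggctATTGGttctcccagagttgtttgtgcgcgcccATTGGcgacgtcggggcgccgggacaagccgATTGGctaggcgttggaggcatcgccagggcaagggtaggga
Pdp2: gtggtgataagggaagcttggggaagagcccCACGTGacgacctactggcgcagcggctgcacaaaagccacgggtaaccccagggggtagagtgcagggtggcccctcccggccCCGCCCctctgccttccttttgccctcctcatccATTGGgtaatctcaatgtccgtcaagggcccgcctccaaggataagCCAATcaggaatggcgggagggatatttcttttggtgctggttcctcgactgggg

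The capitals in Pdk4 are a single CCAAT box, read on the opposite strand as ATTGG at -131 to -127, counted back from -1 at the base before the start. Pdk2 had 3 CCAAT boxes, at -105, -73 and -42, and an E-box, CACGTG, at -126. Pdp2 had 2 CCAAT boxes, an E-box at -219 and a GC box, GGGCGG, read as CCGCCC at -135. CCAAT is in 33.8% of 32851 RefSeq windows of this length, GGGCGG in 32.7% and CACGTG in 6.02%. Windows were found for 9 of the 10 genes, all but Pdp1. Among those 9, 5 held CCAAT, 6 held GGGCGG and 3 (Pdk2, Pdp2 and Pdpr) held CACGTG. None of the 9 held the FoxO letters GTAAACA (3.17% of windows), the nuclear receptor half-site AGGTCA (14%), a pair of those half-sites in a row spaced by 1 base (0.0335%), the oestrogen-related receptor letters TCAAGGTCA (0.387%), the glucocorticoid receptor half-site AGAACA (16.1%) or TATAAA (12.4%). The longer nuclear receptor motifs contain AGGTCA and overlap with it. A match or its absence in this window is a description of letters and says nothing of binding here or further away.

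The 4 kinases differed widely in level. In ET libraries Pdk4 led with a mean of 344 ± 211 TPM (SD, n = 3), followed by Pdk2, the kinase found in most tissues, with 153 ± 48.8, Pdk1, a kinase known for induction by hypoxia, with 21.9 ± 8.11, and Pdk3 with 1.56 ± 1.62 TPM. In CONT libraries Pdk2 led with 136 ± 30.3 TPM, followed by Pdk4 with 60.5 ± 22.6, Pdk1 with 15.4 ± 5.03 and Pdk3 with 0.907 ± 0.601 TPM. By TPM over all genes, Pdk4 held rank 597, 135 and 162 in ET replicates 1 to 3, against rank 1218, 872 and 678 in CONT replicates 1 to 3. Among the 10 genes Pdk4 thus stood first by mean in ET libraries, with a range that overlapped that of the next gene, Pdha1, and at place 5 in CONT libraries, where it overlapped Dlat, the gene before it. The order in ET libraries went on with Pdha1 (225 TPM), Pdhb (224), Pdk2, Dlat (76.8), Pdk1, Pdp1 (8.09), Pdpr (5.26), Pdp2 (4.15) and Pdk3, and the ranges over the 3 libraries did not overlap between Pdk2 and Dlat, Dlat and Pdk1, and Pdk1 and Pdp1, while those of the other neighbours did. In CONT libraries the order was Pdhb (249 TPM), Pdha1 (178), Pdk2, Dlat (75.0), Pdk4, Pdk1, Pdp1 (6.92), Pdpr (2.50), Pdp2 (2.41) and Pdk3. There Pdhb and Pdha1, Pdha1 and Pdk2, Dlat and Pdk4, and Pdpr and Pdp2 had overlapping ranges, and the other neighbours did not.

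**Figure D1:**
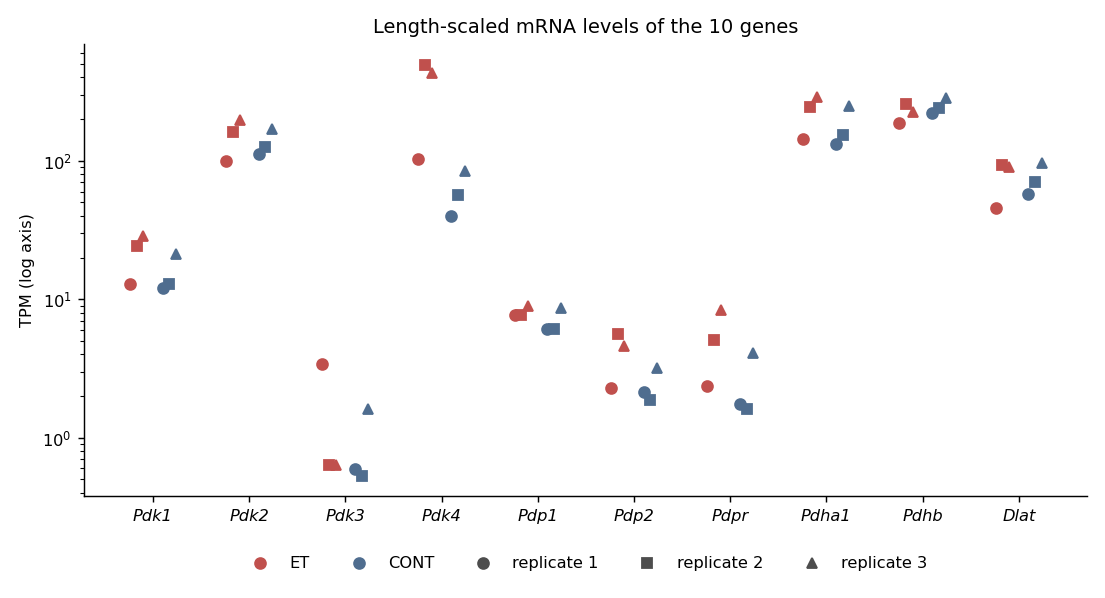
Length-scaled mRNA level (TPM, log axis) of each of the 10 genes, 1 point per library, with ET points left of CONT points and a marker shape per replicate number, which pairs nothing. Pdk4 is at 103 to 496 TPM in ET libraries and 40.0 to 84.7 TPM in CONT libraries, while the points of the other 9 genes overlap between the groups.

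Pdk2 had 179, 324 and 440 CPM in ET replicates 1 to 3, against 263, 310 and 351 CPM in CONT replicates 1 to 3. The ET libraries lay on both sides of the CONT range, and the log2 fold change was 0.03 ± 0.33. Pdk1 had 52.8, 113 and 150 CPM in ET, against 66.2, 74.3 and 103 CPM in CONT, a log2 fold change of 0.38 ± 0.38. Here too ET replicate 1 was the lowest of the 6 libraries and ET replicate 3 the highest. The log2 fold change of Pdk1 was 0.03 ± 0.37 without ET replicate 3 and 0.71 ± 0.23 without ET replicate 1, and neither passed in edgeR's test (adjusted p 0.982 and 0.269). Without both ET replicate 1 and CONT replicate 3 it was 0.93 ± 0.17 with an adjusted p of 0.0372 by edgeR, in a fit where the group and the library set coincide and 828 of 15714 genes (5.27%) were called.

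Pdk3 was the rarest of the 10 genes, with 217, 41 and 41 expected counts in ET replicates 1 to 3, against 48, 33 and 106 in CONT replicates 1 to 3. In CPM this was 5.79, 1.21 and 1.33 in ET, against 1.31, 1.24 and 3.14 in CONT, a log2 fold change of 0.55 ± 0.70. The highest library of each group was the one with the most atrial marker counts, ET replicate 1 and CONT replicate 3. Those libraries also had the highest mesothelial (165 and 25.0 CPM) and adipocyte (72.4 and 23.4 CPM) marker sums of their groups. The part of any of these tissues in Pdk3 was not tested. The edgeR fold change of Pdk3 was -0.57 ± 0.47 without ET replicate 1, so that 1 library decided its sign. The log2 ratio of mean CPM was 2.18 within set 1 and -1.30 within set 2.

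**Figure D2:**
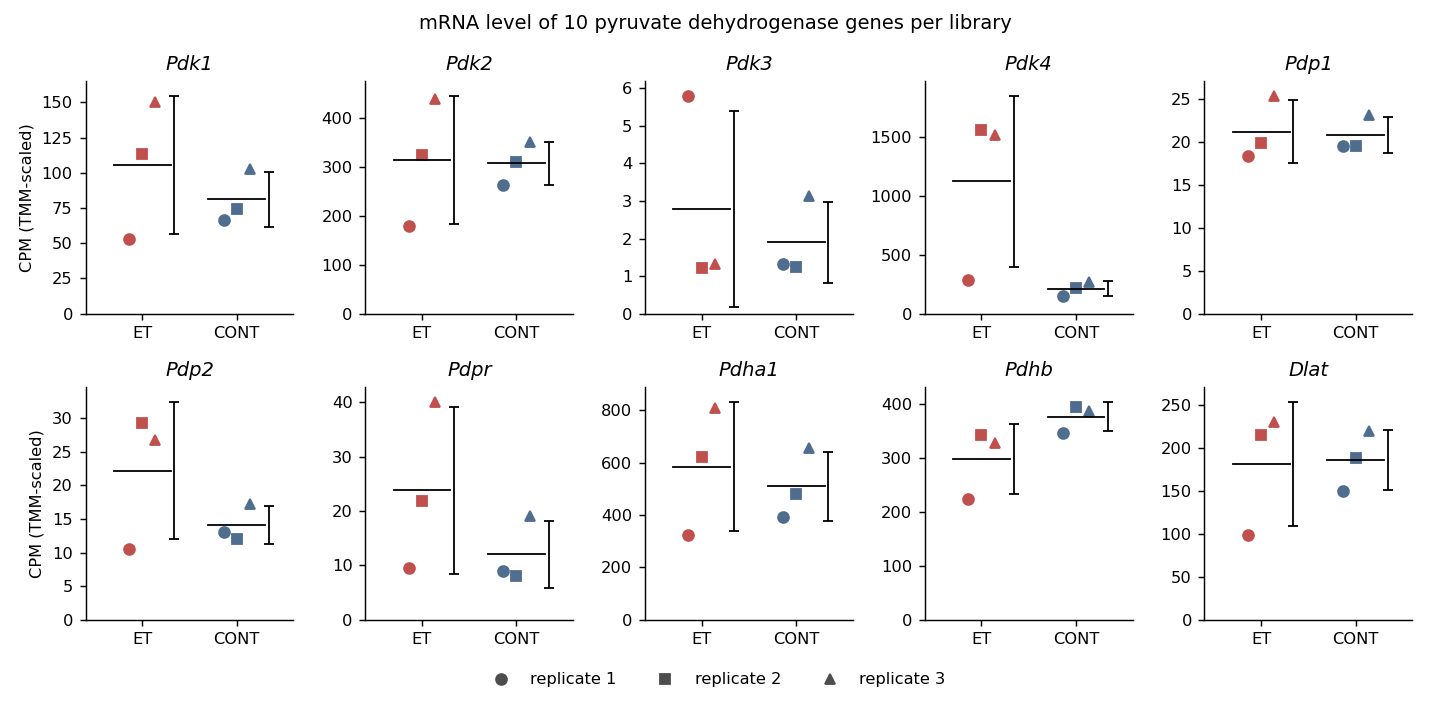
TMM-scaled CPM of each of the 10 genes on its own linear axis from 0, with 1 point per library, a line at the mean and a bar of ± 1 SD (n = 3), ET left of CONT. In Pdk4 all ET points lie above the CONT points and in Pdhb all lie below them. In 7 of the 10 genes, all but Pdk3, Pdk4 and Pdpr, the lowest point is ET replicate 1.

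The make-up of the kinase mRNA pool can be read within each library, where scaling between libraries plays no part. Pdk4 made up 46.9%, 72.7% and 65.6% of the summed TPM of the 4 kinases in ET replicates 1 to 3, against 24.3%, 28.9% and 30.5% in CONT replicates 1 to 3. All ET libraries, ET replicate 1 included, were above all CONT libraries, with ET replicate 1 the lowest of its group and CONT replicate 3 the highest of its own. The means were 61.7% ± 13.3 in ET and 27.9% ± 3.21 in CONT (SD, n = 3 each), a difference of 33.8 percentage points. Pdk2 made up 33.1% ± 11.3 in ET and 64.5% ± 3.34 in CONT, and Pdk1 4.59% ± 1.18 in ET and 7.16% ± 0.588 in CONT. The shares of Pdk1 and Pdk2 were lower in every ET library than in any CONT library, and since shares sum to the whole they are not separate results. Pdk4 was at 1.03, 3.07 and 2.19 times the TPM of Pdk2 in ET replicates 1 to 3, against 0.358, 0.449 and 0.498 times in CONT replicates 1 to 3.

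**Figure D3:**
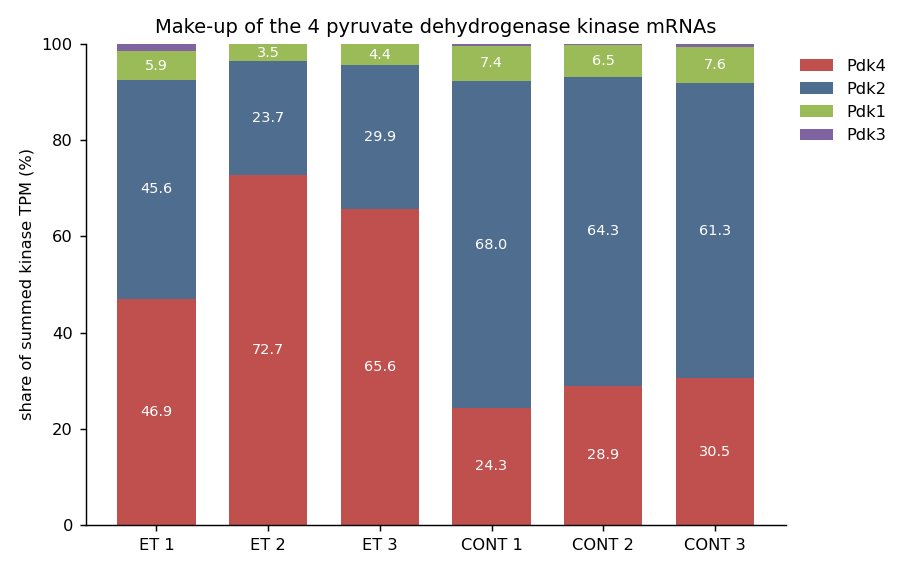
Share of each kinase in the summed TPM of Pdk1 to Pdk4, in percent, 1 stacked bar per library, with the 3 ET libraries left of the 3 CONT libraries. Pdk4 takes 46.9% to 72.7% of each ET bar and 24.3% to 30.5% of each CONT bar, and Pdk2 is the largest segment of every CONT bar.

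Summed kinase TPM was 220, 682 and 658 in ET replicates 1 to 3, against 164, 197 and 278 in CONT replicates 1 to 3. These ranges overlapped, with ET replicate 1 inside the CONT range. Without Pdk4 the sum was 176 ± 55.4 TPM in ET and 153 ± 35.9 TPM in CONT, which also overlapped. Set against the mean TPM of the 3 complex subunits the kinase sum was 1.75, 3.43 and 3.27 in ET replicates 1 to 3, against 1.20, 1.27 and 1.33 in CONT replicates 1 to 3. On this ratio the groups did not overlap. It was added after the values had been seen.

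Pdp1 and Pdp2 encode the catalytic subunits of the phosphatase, and Pdp1 is the form stimulated by calcium. Pdp1 was the steadiest of the 10 genes, with 18.3, 19.8 and 25.3 CPM in ET replicates 1 to 3, against 19.5, 19.5 and 23.2 CPM in CONT replicates 1 to 3, and a log2 fold change of 0.03 ± 0.16. Its 6 libraries spanned 0.46 on the log2 scale, against 3.41 for Pdk4. Pdp2 had 10.6, 29.2 and 26.8 CPM in ET, against 13.1, 12.0 and 17.3 CPM in CONT. ET replicates 2 and 3 were above all CONT libraries and ET replicate 1 below them, so the groups overlapped, and the log2 fold change was 0.65 ± 0.37. It was 0.40 ± 0.40 without ET replicate 2 and 1.0 ± 0.18 without ET replicate 1. Within sets 1 and 2 the log2 ratio of mean CPM was -0.25 and 0.70.

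Pdpr, whose protein restrains the phosphatase, had 9.55, 21.8 and 40.0 CPM in ET replicates 1 to 3, against 8.92, 8.09 and 19.2 CPM in CONT replicates 1 to 3. The highest value was in ET replicate 3, the groups overlapped, and the log2 fold change was 0.98 ± 0.55. It was 0.38 ± 0.49 without ET replicate 3 and 1.49 ± 0.58 without CONT replicate 3. In both groups the higher libraries were those of set 2, and within the sets the log2 ratio was 0.17 and 0.69. When ET replicate 1 and CONT replicate 3 were both omitted, edgeR called Pdp2 (log2 fold change 1.18 ± 0.14, adjusted p 0.0171) and Pdpr (1.88 ± 0.30, adjusted p 0.0334), in the fit where group and set coincide.

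Summed kinase TPM over the summed TPM of Pdp1 and Pdp2 was 22.1, 51.3 and 48.8 in ET replicates 1 to 3, against 20.0, 24.8 and 23.5 in CONT replicates 1 to 3. ET replicate 1 lay inside the CONT range and the other ET libraries above it. The means were 40.8 ± 16.2 in ET and 22.8 ± 2.47 in CONT (SD, n = 3 each). Pdp2 made up 22.9%, 42.0% and 34% of the phosphatase TPM in ET, against 26.1%, 23.6% and 27.0% in CONT.

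Pdha1 and Pdhb form the enzyme that decarboxylates pyruvate, and Dlat forms the core that carries the acetyl group on. Pdha1, the alpha subunit that the kinases phosphorylate, had 323, 622 and 809 CPM in ET replicates 1 to 3, against 394, 479 and 655 CPM in CONT replicates 1 to 3, and a log2 fold change of 0.20 ± 0.37. Dlat, the lipoate-bearing acetyltransferase of the core, had 99.2, 215 and 230 CPM in ET, against 150, 188 and 219 CPM in CONT, and a log2 fold change of -0.03 ± 0.33. In both genes the groups overlapped, with ET replicate 1 the lowest and ET replicate 3 the highest library.

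Pdhb, the beta subunit, had 223, 343 and 327 CPM in ET replicates 1 to 3, against 346, 395 and 388 CPM in CONT replicates 1 to 3. All ET libraries were below all CONT libraries, by 1.01-fold at the nearest pair, and the log2 fold change was -0.34 ± 0.22, or -0.15 ± 0.15 without ET replicate 1. In TPM the groups overlapped, with 189, 258 and 225 in ET and 222, 243 and 282 in CONT. Of the 10 genes, 1 (Pdk4) was higher in ET without overlap in CPM and 1 (Pdhb) lower, beside 6.89% and 8.36% of all 15727 genes. By the sign of the fold change 8 were above 0 and 2 (Pdhb and Dlat) below, with a median of 0.29, beside a median of 0.01 over all genes tested. Nothing is read from these counts, since the genes were chosen with the contrast known.

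The subunits did not keep a fixed ratio. Pdhb was at 1.33, 1.05 and 0.783 times the TPM of Pdha1 in ET replicates 1 to 3, against 1.69, 1.58 and 1.13 times in CONT replicates 1 to 3, with overlap. Dlat was at 0.322, 0.383 and 0.316 times the TPM of Pdha1 in ET, against 0.438, 0.460 and 0.387 times in CONT. The ET ratios of Dlat to Pdha1 were all below the CONT ratios in TPM, the nearest pair being ET replicate 2 and CONT replicate 3. In CPM, which are not divided by length, Dlat and Pdha1 had 215 and 622 in ET replicate 2, against 219 and 655 in CONT replicate 3. There the order of this pair was the other way, so the groups overlapped. The effective length of Dlat, which divides its TPM, was longer in every ET library than in any CONT library. These ratios were chosen after the values had been seen.

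ET replicate 1 had the lowest CPM of the 6 libraries in 7 of the 10 genes, against 24.3% of all genes tested, and ET replicate 3 the highest in 6 of the 10, against 23.9% of all genes. ET replicate 1 also had the lowest sum of cardiomyocyte markers, and the CPM were therefore set against that sum as well, a scaling added after seeing the data. Per 1000 CPM of cardiomyocyte markers, Pdhb was at 6.52, 5.81 and 6.03 in ET replicates 1 to 3, against 6.09, 6.24 and 5.97 in CONT replicates 1 to 3. On this scale the groups overlapped and their means were 6.12 ± 0.361 in ET and 6.10 ± 0.137 in CONT.

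Pdk4 was at 8.43, 26.5 and 28.0 per 1000 CPM of cardiomyocyte markers in ET replicates 1 to 3, against 2.60, 3.47 and 4.17 in CONT replicates 1 to 3. The groups did not overlap, and the log2 ratio of the means was 2.62. Pdp2 was at 0.308, 0.495 and 0.494 in ET, against 0.230, 0.190 and 0.266 in CONT, and did not overlap on this scale either, with a log2 ratio of 0.92. Pdk2 was at 5.21, 5.48 and 8.10 in ET, against 4.63, 4.90 and 5.39 in CONT, and overlapped. Pdha1 (log2 ratio 0.50) and Dlat (0.26) overlapped as well. The marker genes can themselves differ between the groups, and a shift in them would shift all 10 values alike. Their sum was lowest in ET replicate 1 (34288 CPM), which raises every gene in that library on this scale. In CPM, Pdp2 was lowest in that library, at 10.6, and the groups overlapped. How many of all genes do not overlap on this scale was not counted, so nothing is read from the separations.

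**Figure D4:**
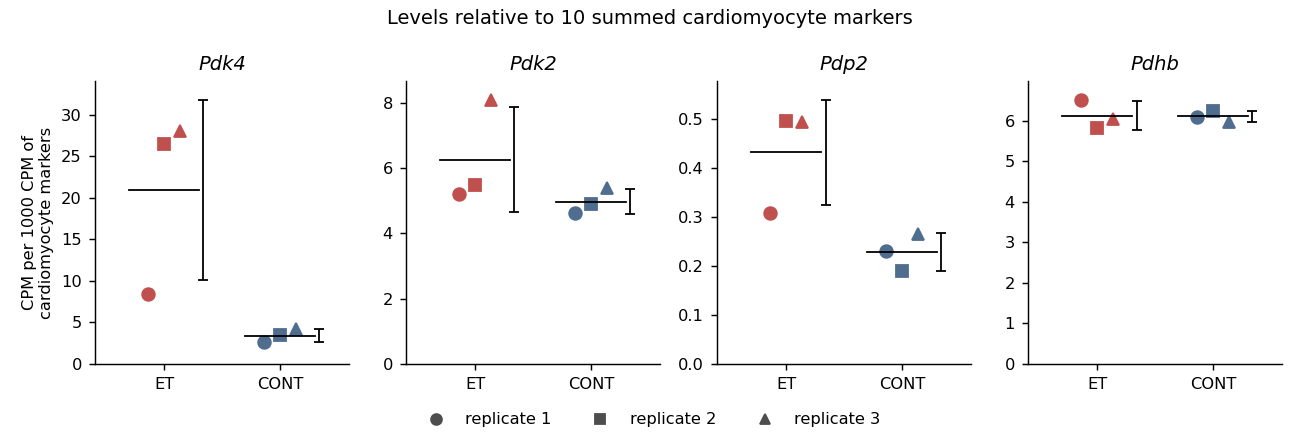
CPM of Pdk4, Pdk2, Pdp2 and Pdhb per 1000 CPM of 10 summed cardiomyocyte markers, on linear axes from 0, with 1 point per library, the mean and ± 1 SD (n = 3), ET left of CONT. The ET points of Pdk4 lie at 8.43 to 28.0 and its CONT points at 2.60 to 4.17, while Pdhb lies between 5.81 and 6.52 in all 6 libraries.

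Within the library sets, the log2 ratios of ET to CONT are those of mean CPM, without a fit. In sets 1 and 2 they were -0.41 and 0.35 for Pdk1, -0.68 and 0.12 for Pdk2, -0.44 and 0.13 for Pdha1, -0.77 and 0.02 for Dlat, and -0.73 and -0.21 for Pdhb. Of the 10 genes, Pdk4 and Pdpr were above 0 in both sets and Pdhb and Pdp1 (-0.09 and -0.04) below 0 in both. Each ratio rests on a single ET library in set 1 and a single CONT library in set 2. Those are the libraries with the highest atrial markers, so here the set and the tissue markers cannot be told apart.

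**Figure D5:**
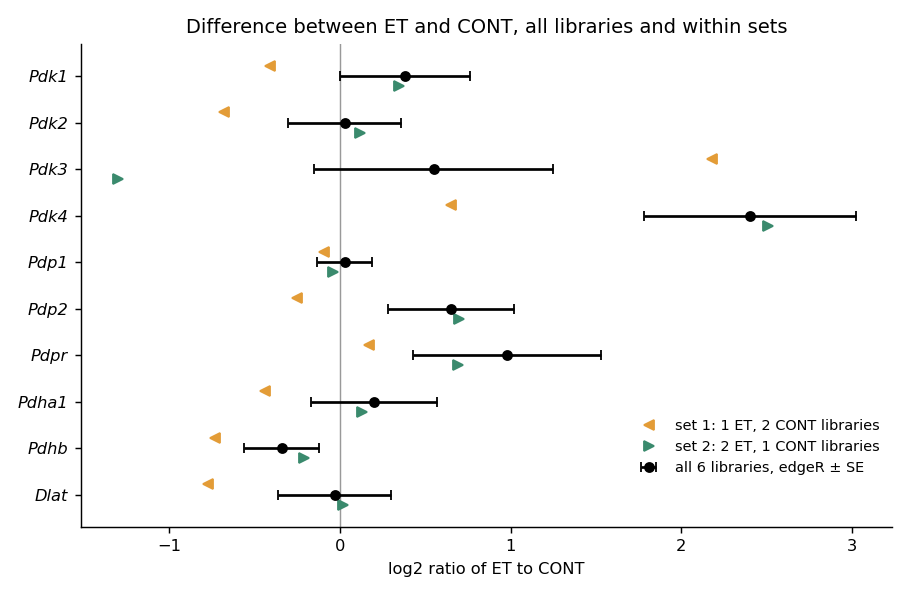
Log2 ratio of ET to CONT for each of the 10 genes. Black circles are the edgeR log2 fold changes over all 6 libraries with ± SE. Left-pointing triangles are the log2 ratio of mean CPM within set 1 and right-pointing triangles that within set 2. Pdk4 lies at 2.40 over all libraries, 0.65 in set 1 and 2.51 in set 2.

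Effective lengths, which depend only in part on the mix of transcript forms and scale TPM, were steady for most of the 10 genes. What set their differences between libraries was not tested. Between the shortest and the longest of the 6 libraries they differed by 1.12-fold for Dlat, 1.10-fold for Pdpr and 1.08-fold for Pdp1, and by 1.03-fold or less for the other 7. For Dlat they separated the groups, with 2614, 2457 and 2439 bases in ET replicates 1 to 3, against 2395, 2342 and 2366 in CONT replicates 1 to 3. This lowers the TPM of Dlat in ET relative to CONT. For Pdk1 they were shorter in every ET library (4957 to 5024 bases) than in any CONT library (5026 to 5104), by 5024 against 5026 bases at the nearest pair. How many of all genes separate the groups by length was not counted, so nothing particular to Dlat or Pdk1 is read from this. For Pdk4 they were 3395, 3379 and 3380 bases in ET replicates 1 to 3, against 3390, 3398 and 3333 bases in CONT replicates 1 to 3.

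The genes whose profile over the 6 libraries lay nearest to that of Pdk4, by the root mean square difference of mean-centred log2 CPM among 9466 genes, were Fbxo32 (0.627), the muscle ubiquitin ligase atrogin, Ehhadh (0.642), a peroxisomal enzyme of fatty acid oxidation, Myh7 (0.670), the slow myosin heavy chain, Bnip3 (0.678), a mitophagy receptor, and Klhl38 (0.692). Fbxo32 had 81.8, 199 and 235 CPM in ET replicates 1 to 3, against 54.8, 65.8 and 111 CPM in CONT replicates 1 to 3. As in Pdk4, ET replicates 2 and 3 were well above the rest, but ET replicate 1 lay inside the CONT range. The log2 fold changes of these 5 genes lay between 1.02 (Klhl38) and 2.12 (Myh7), and their adjusted p between 0.515 and 0.589 in edgeR's test, so none passed. The 5 genes were picked for likeness to Pdk4 over these same libraries. Their shared pattern and positive fold changes thus follow from the choice.

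Of 17 genes for the other subunits of the complex and the entry of pyruvate 14 were tested, of which 0 passed in either direction, 7 were above 0 and 7 below, 0 were higher and 3 lower without overlap (6.89% and 8.36% of all genes tested), and the median log2 fold change was -0.03 (0.01 over all genes). Mpc2, a subunit of the mitochondrial pyruvate carrier, had 131, 181 and 171 CPM in ET replicates 1 to 3, against 240, 275 and 197 CPM in CONT replicates 1 to 3 (log2 fold change -0.56 ± 0.21). Ldha, the lactate dehydrogenase form that is most abundant in skeletal muscle, had 270, 358 and 369 CPM in ET, against 438, 451 and 430 CPM in CONT (-0.40 ± 0.19). The third gene without overlap was Pkm, a pyruvate kinase, at 478, 739 and 676 CPM in ET, against 791, 888 and 886 CPM in CONT (-0.44 ± 0.22), named for this count after its values were seen. These 3 were lower in every ET library than in any CONT library, and like most of the 10 genes were lowest in ET replicate 1, the library with the lowest cardiomyocyte markers. The part of those cells in the difference was not tested. Gpt, an alanine aminotransferase that feeds pyruvate, had a log2 fold change of -0.61 ± 0.30 with overlap. Of 14 genes for the thiamine and lipoate cofactors, 0 passed, 4 were above 0 and 10 below, 0 were higher and 3 lower without overlap (6.89% and 8.36% of all genes), with a median of -0.13 (0.01 over all genes). Those with the lowest p were Bola3 (-0.36 ± 0.16) and Glrx5 (-0.30 ± 0.15), which take part in making the iron-sulfur clusters that lipoate synthesis needs, and Lipt2 (-0.44 ± 0.23), an enzyme of that synthesis. Bola3, Lipt2 and Nfu1, another iron-sulfur carrier (-0.25 ± 0.15, named after its values were seen), were the 3 without overlap.

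Among 9 genes of the related branched-chain and 2-oxoglutarate dehydrogenase complexes, 0 passed, 6 were above 0 and 3 below, 0 had no overlap in either direction (6.89% of all genes higher and 8.36% lower), and the median was 0.03 (0.01 over all genes). Ppm1k, the phosphatase that activates the branched-chain complex, had 30.5, 62.5 and 69.3 CPM in ET replicates 1 to 3, against 25.8, 32.3 and 53.1 CPM in CONT replicates 1 to 3 (0.55 ± 0.37). Dbt, the core subunit of that complex, had 0.56 ± 0.35 and Ogdhl, a relative of the 2-oxoglutarate dehydrogenase, 0.38 ± 0.46. In these 3 genes the groups overlapped and ET replicates 2 and 3 were the highest libraries.

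Of 20 transcription factors and coactivators reported to act on Pdk genes, 0 passed, 16 were above 0 and 4 below, 2 were higher and 0 lower without overlap (6.89% and 8.36% of all genes), with a median of 0.30 (0.01 over all genes). Foxo1, a forkhead factor held in check by insulin, had 27.0, 24.7 and 22.8 CPM in ET replicates 1 to 3, against 21.8, 20.3 and 19.7 CPM in CONT replicates 1 to 3 (0.27 ± 0.12). Its order over the libraries was not that of Pdk4, since ET replicate 1 was the highest. The other factor without overlap was Epas1, a hypoxia-inducible factor, at 447, 613 and 480 CPM in ET, against 443, 409 and 396 CPM in CONT (0.30 ± 0.19), named after its values were seen. Klf15, a factor induced by glucocorticoids, had 27.5, 61.1 and 69.3 CPM in ET, against 22.4, 21.9 and 47.8 CPM in CONT (0.78 ± 0.43), with ET replicates 2 and 3 highest. Nr4a1, an immediate early nuclear receptor, had 8.99, 4.29 and 20.4 CPM in ET, against 34.7, 12.8 and 32.8 CPM in CONT (-1.26 ± 0.59), with overlap.

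A list of 24 genes of fuel use held mostly genes of fatty acid use, with Txnip, Slc2a4 and Hk2 of glucose use among them. Of these 24 genes 23 were tested, of which 0 passed, and 17 were above 0 and 6 below. The median was 0.17 (0.01 over all genes). Without overlap 3 were higher and 0 lower (6.89% and 8.36% of all genes). Those 3 were Angptl4, an inhibitor of lipoprotein lipase, Cpt1a, which admits fatty acids to mitochondria, and Txnip, which limits glucose uptake. Angptl4 had 21.5, 25.9 and 37.1 CPM in ET replicates 1 to 3, against 9.50, 10.4 and 9.11 CPM in CONT replicates 1 to 3. Cpt1a had 57.7, 54.6 and 55.8 CPM in ET, against 39.2, 35.6 and 33.8 CPM in CONT. Txnip had 558, 822 and 942 CPM in ET, against 339, 331 and 408 CPM in CONT. The log2 fold changes were 1.54 ± 0.21 for Angptl4, 0.63 ± 0.12 for Cpt1a and 1.11 ± 0.25 for Txnip, with adjusted p of 0.427, 0.427 and 0.469 in edgeR's test. ET replicate 1, where Pdk4 was near the CONT libraries, had the highest Cpt1a of all 6 libraries.

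On GRCm38 (mm10), in the GENCODE vM21 annotation, all 10 are protein-coding genes and each value covers all exons. Pdk1 (ENSMUSG00000006494) lies on chromosome 2 at 71873224 to 71903858 (plus strand), Pdk2 (ENSMUSG00000038967) on chromosome 11 at 95026258 to 95041354 (minus) and Pdk3 (ENSMUSG00000035232) on chromosome X at 93764607 to 93832201 (minus). Pdk4 (ENSMUSG00000019577) lies on chromosome 6 at 5483351 to 5496309 (minus), with 3 annotated transcripts over 3511 exon bases. Pdp1 (ENSMUSG00000049225) is on chromosome 4 at 11958184 to 11966452 (minus), Pdp2 (ENSMUSG00000048371) on chromosome 8 at 104591451 to 104599026 (plus) and Pdpr (ENSMUSG00000033624) on the same chromosome at 111094630 to 111137074 (plus). Pdha1 (ENSMUSG00000031299) is on chromosome X at 160122209 to 160138413 (minus), Pdhb (ENSMUSG00000021748) on chromosome 14 at 8165996 to 8173025 (minus) and Dlat (ENSMUSG00000000168) on chromosome 9 at 50634633 to 50659780 (minus).

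Some values carry reads that could belong elsewhere. Of the exon bases of Pdha1, 16.1% overlap exons of Map3k15 on the opposite strand, and of those of Pdpr, 3.36% overlap exons of 9430091E24Rik, also on the opposite strand. Whether counting used strand is not given in the sources used here. Without it such reads cannot be told apart. Of all stretches of 75 bases in Pdhb transcripts, 6.86% also occur in Gm6123, a processed pseudogene that was assigned 53.5 to 75.7 counts per library, against 8382 or more for Pdhb. In Pdk4 0.60% of such stretches occur in transcripts of other genes, and in the other 8 genes none did.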

How the data were processed

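Per the labels' protocols, libraries were made with the NuGEN Universal mRNA Plus kit from 1000 ng of total RNA and sequenced as paired reads of 75 bp. STAR 2.7.0f, RSEM 1.2.31 and mm10 are named in the submitters' processing notes. The annotation release is not given in the sources used here. The authors deposited expected counts (estimated, not normalized, not always whole) in 1 table. TPM and FPKM values were deposited in 1 file per library, per the file headers, with the same TPM total in each.

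Expected counts were rounded and filtered with filterByExpr (minimum count 10, minimum total 15), which left 15727 genes, and scaled with TMM. ET was compared with CONT, 3 libraries each, by the robust quasi-likelihood test of edgeR 4.0.16 (R 4.3.3), two-sided, with no covariate, Benjamini-Hochberg adjustment and a threshold of 0.05. DESeq2 1.42.0 and limma 3.58.1 served as alternatives. Counts simulated from the means and dispersions of the edgeR fit were also run through edgeR, DESeq2 and limma-voom. That outcome is not used here. Log2 CPM used a prior count of 2. Effective length was taken as counts divided by FPKM and by the total of the library, and the sign of the first principal component of its log2 over 8090 genes (at least 200 counts and an FPKM of 1 in each library) gave the library sets. Motifs were sought in RefSeq promoter windows. Samples were numbered 1 to 3 within a group in accession order, which pairs none of them. Tried as alternatives were other scaling factors, filters and tools, pseudocounts of 1 and 0.1 on TPM, removal of mitochondrially encoded genes, a term for the library set and leaving out libraries. The 10 genes and all lists were chosen with earlier results of these data known. By rule the text names all 10 genes, the 3 genes of lowest p per list with a mean CPM of at least 1, and the 5 profiles nearest to the gene of widest log2 range, among genes with a mean CPM of at least 5 that are neither predicted loci nor pseudogenes.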

Additional observations from a re-analysis of the deposited data

How the results depend on the processing

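No paired analysis was possible because the labels give no replicate numbers that groups share. Added after seeing the data were the DESeq2 fits without 1 library each and the ratio to cardiomyocyte markers. The edgeR test called 0 genes without any 1 library, DESeq2 called 185, limma-trend 1 with a pseudocount of 1 and 2 with 0.1, and edgeR 828 when ET replicate 1 and CONT replicate 3 were both omitted. DESeq2 called 418, 212 and 196 without ET replicates 1 to 3 and 26, 38 and 436 without CONT replicates 1 to 3. The cause of these shifts was not tested. Scaling by library totals moved the median log2 fold change of all genes to 0.12, and limma-trend to 0.15 and 0.18.

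Pdk4 was above 0 under all 25 alternatives. It passed with DESeq2 (2.42), with both libraries omitted (3.09) and with DESeq2 without ET replicate 1 (2.87), ET replicate 3 (2.14) or CONT replicate 3 (2.64). With both libraries omitted Pdk1 (0.93), Pdp2 (1.18) and Pdpr (1.88) passed too, and with DESeq2 without ET replicate 1 Pdp2 (1.0) and Pdpr (1.37). Leaving out 1 library gave, by edgeR, 0.03 to 0.71 for Pdk1, -0.29 to 0.32 for Pdk2, -0.57 to 1.13 for Pdk3, 2.09 to 2.87 for Pdk4, -0.12 to 0.13 for Pdp1, 0.40 to 1.0 for Pdp2, 0.38 to 1.49 for Pdpr, -0.11 to 0.50 for Pdha1, -0.45 to -0.15 for Pdhb and -0.24 to 0.27 for Dlat, and none of these passed. With a term for the library set, edgeR gave 0.46 for Pdk3, 1.58 for Pdk4, 0.23 for Pdp2, 0.43 for Pdpr, -0.47 for Pdhb and -0.37 for Dlat. The sign turned with the set term for Pdk1 (-0.03), Pdk2 (-0.28), Pdp1 (-0.07) and Pdha1 (-0.15). It turned with upper-quartile factors for Pdk2 (-0.03) and Pdp1 (-0.02), with limma-voom for Pdk2 (-0.05), and for Dlat with library totals (0.02) and both libraries omitted (0.42). In DESeq2 it turned for Pdk2 without ET replicate 3 (-0.28) or CONT replicate 1 (-0.06), for Pdk3 without ET replicate 1 (-0.57), and for Pdp1 without ET replicate 3 (-0.11), CONT replicate 1 (-0.01) or CONT replicate 2 (-0.0). It also turned there for Pdha1 without ET replicate 3 (-0.10) and for Dlat without ET replicate 1 (0.28) or CONT replicate 3 (0.12). The log2 ratio of means per cardiomyocyte markers was above the edgeR fold change in every gene. It was 0.67 for Pdk1, 0.33 for Pdk2, 1.23 for Pdk3, 2.62 for Pdk4, 0.41 for Pdp1 and 0.92 for Pdp2. For Pdpr it was 1.26, for Pdha1 0.50, for Pdhb 0.00 and for Dlat 0.26, where the sign turned. Only for Pdp1 and Pdhb did the shift exceed the SE of the edgeR fit. The ET minus CONT difference in the Pdk4 share of kinase TPM stayed between 28.4 and 41.3 points without any 1 library, and that of the kinase to phosphatase ratio between 12.7 and 27.3. Depth limits Pdk3 most, with 33 counts in its lowest library.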
